A study of Sus scrofa with 8 samples.

Results

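The genes described here encode the MHC class I molecules of the pig and the proteins that load peptides onto them: the heavy chains SLA-1, SLA-2, SLA-3, SLA-6, SLA-7 and SLA-8, the light chain B2M, the peptide transporter subunits TAP1 and TAP2, and tapasin, TAPBP. All probe sets whose only gene symbol in the platform annotation was one of these 10 names were taken. They numbered 20 of the 24123 probe sets on the array and covered 8 of the 10 genes, among 6790 genes with a symbol of their own. B2M had 9 probe sets, TAP1 had 3, SLA-6 and SLA-8 had 2 each, and SLA-2, SLA-3, SLA-7 and TAPBP had 1 each. No probe set carried SLA-1 or TAP2 as its only symbol, so both genes were not analysed here. Another 5 class I probe sets were annotated to several of SLA-1, SLA-2, SLA-3 and LOC100513601 at once and were kept apart.

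Transcripts were measured in cells scraped from the oviducts of 4 weaned Landrace × Large White sows before ovulation, 24 h after laparoscopic insemination. In every sow one oviduct received flow-sorted Y-spermatozoa and the other received X-spermatozoa, and the sorted doses of each type were pooled over boars. This gave 4 arrays with Y-spermatozoa and 4 with X-spermatozoa, numbered by biological replicate. Arrays with the same number were taken as the oviducts of the same sow, which the labels do not state. No oviduct without spermatozoa was analysed here, so each difference is between the sperm types alone. The material was mixed. The epithelial markers OVGP1, EPCAM and CDH1 were above background on all arrays. The 5 measured smooth muscle and endothelial marker genes, led by ACTA2, had summed signals of 1036 to 4061. Of the 9 measured leukocyte marker genes, 2, CD4 and CD79B, lay below the background level on every array. The question was whether the oviduct responds differently to the sperm types, here for the class I pathway.

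MHC class I molecules sit on the surface of nearly all nucleated cells and present peptides from inside the cell to CD8 T cells. A heavy chain folds with beta-2-microglobulin in the endoplasmic reticulum, TAP carries peptides in from the cytosol, and tapasin holds the empty molecule beside TAP until a peptide fits. In the pig SLA-1, SLA-2 and SLA-3 are the classical, highly polymorphic heavy chains, and SLA-6, SLA-7 and SLA-8 are the non-classical ones. Spermatozoa are foreign cells to the female, and the oviductal epithelium meets them directly.

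Of the 20 probe sets, 17 were above background on all 8 arrays. The background level was set on each array at the 95th percentile of 64 reporter probe sets for sequences that pigs lack, and it lay between 8.395 and 12.485 signal units. TAP1 probe sets Ssc.23546.1.S1_at and Ssc.23546.2.A1_at were below it on all 8 arrays, and SLA-6 probe set Ssc.16308.1.S1_at was below it on 7 of 8. For these 3 a difference between sperm types has no firm base.

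Neither class I chains nor peptide-loading genes differed between the sperm types beyond the spread between arrays. In limma with Benjamini-Hochberg adjustment over 23999 probe sets, no member had an adjusted p below 1, and no probe set on the array passed an adjusted p of 0.05. At an unadjusted p of 0.05, none of the 20 members passed, against 855 of all 23999 probe sets, or 3.56%. A sow block left 0 members and 1222 probe sets, or 5.09%. Across the 17 members above background the log2 difference, Y-spermatozoa minus X-spermatozoa, ran between -0.16 and 0.26 with a median of 0.03. Of them 10 were above 0 and 7 below, beside a median of 0.00 over all probe sets. The split depended on the scaling: on the signals as deposited 13 were above 0 and 4 below (median 0.13), while centring each array on its median gave 14 above and 3 below (median 0.16). For all 20 members the median was 0.09, with 13 above 0 and 7 below.

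**Figure D1:**
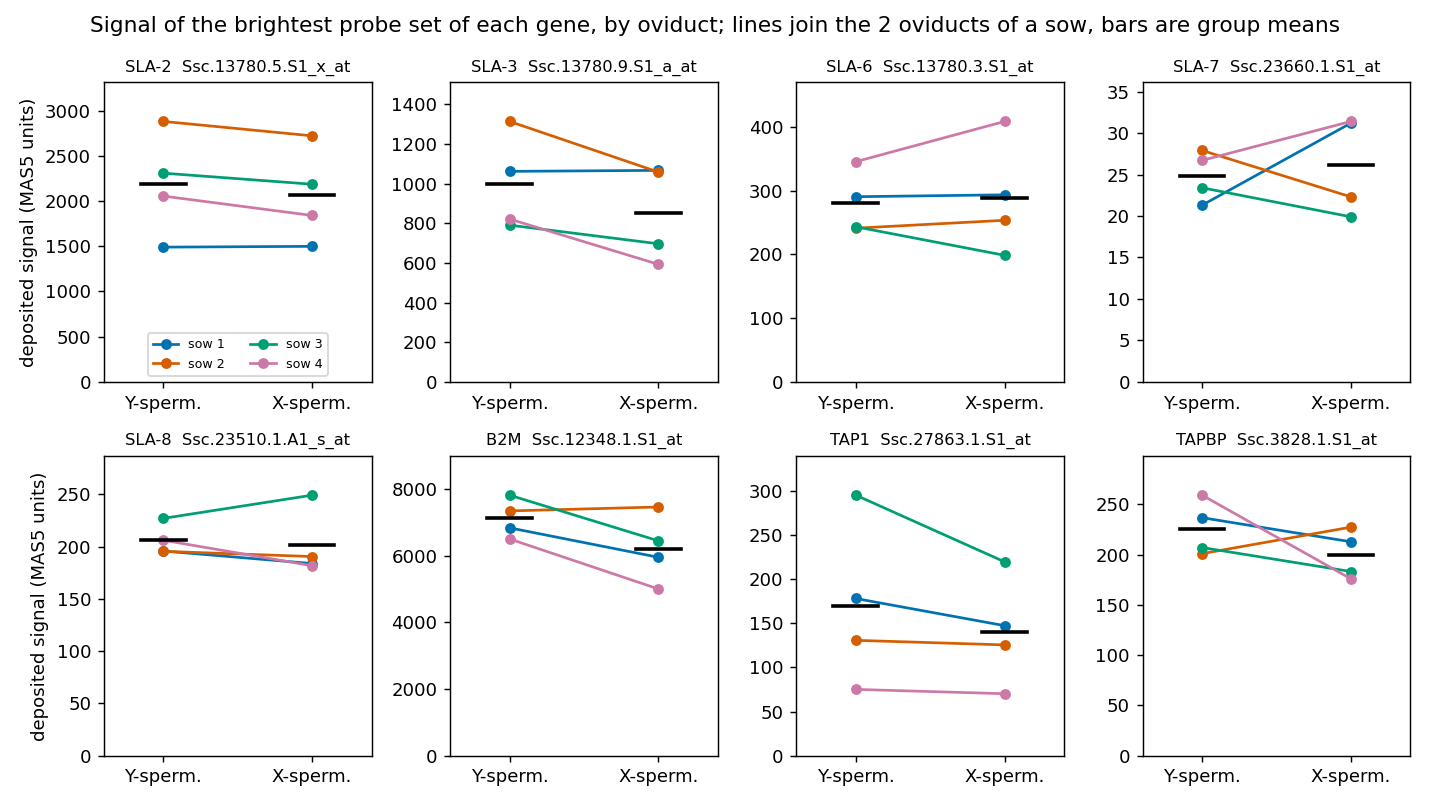
Deposited signal (vertical axis, MAS5 units, starting at 0) of the brightest probe set of each of the 8 genes in oviducts with Y-spermatozoa (left) and X-spermatozoa (right). Points are single oviducts, coloured lines join the oviducts of one sow and black bars are group means of 4. For SLA-2 and TAP1 the lines of the 4 sows keep the same order with both sperm types, while for all other genes lines cross.

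SLA-2, a classical heavy chain, gave signals of 1490.4, 2880.8, 2308.7 and 2055.2 in the Y-spermatozoa oviducts of sows 1 to 4, against 1499.2, 2721.3, 2186.1 and 1840.6 in their X-spermatozoa oviducts. In each sow the oviducts were close to each other, and the groups overlapped almost fully. The means were 2184 ± 577 and 2062 ± 521 (SD, n = 4 each), and the log2 difference was -0.02 ± 0.22 (SE), with a 95% interval of -0.54 to 0.49; it turned to 0.08 on the signals as deposited and 0.11 with arrays centred on their median. Its probe set is of the design whose probes can also bind transcripts of related genes, so the signal may hold other class I chains.

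SLA-3, the other classical chain with a probe set of its own, gave 1061.3, 1313.1, 790.3 and 821.0 in Y-spermatozoa oviducts and 1066.3, 1057.7, 696.3 and 592.6 in X-spermatozoa oviducts. Its signal was higher with Y-spermatozoa in sows 2, 3 and 4, and the groups overlapped. The log2 difference was 0.20 ± 0.25 (SE) with a 95% interval of -0.39 to 0.78, a fold of 0.76 to 1.72.

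Among the non-classical chains no difference passed the test. SLA-6 (Ssc.13780.3.S1_at) gave 290.7, 241.3, 243.5 and 345.7 with Y-spermatozoa and 293.7, 253.7, 198.7 and 408.9 with X-spermatozoa, a log2 difference of -0.01 ± 0.24 (SE), which turned to 0.02 with arrays centred on their median. SLA-7 gave 21.3, 27.9, 23.4 and 26.7 with Y-spermatozoa and 31.2, 22.3, 19.9 and 31.4 with X-spermatozoa, little above background on any array. In SLA-7 the oviducts of one sow differed about as much as those of different sows. SLA-8 (Ssc.23510.1.A1_s_at) gave 195.7, 195.4, 226.9 and 206.0 with Y-spermatozoa and 183.7, 190.4, 249.1 and 181.6 with X-spermatozoa, with sow 3 the highest in both groups; this probe set is of a design that several related transcripts share. Its second probe set differed by 0.14 ± 0.18 (SE) on the log2 scale.

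B2M, the light chain shared by all class I molecules, was far above background on most of its probe sets. Probe set Ssc.12348.1.S1_at gave 6841.3, 7349.0, 7822.2 and 6507.8 in Y-spermatozoa oviducts, against 5956.4, 7466.8, 6450.7 and 5005.1 in X-spermatozoa oviducts. On the deposited scale the Y-spermatozoa side was the brighter in 3 of the 4 sows, with means of 7130 ± 577 and 6220 ± 1025 (SD, n = 4 each). After quantile normalization, which gives all arrays one distribution, the log2 difference was -0.04 ± 0.14 (SE), while it was 0.21 on the signals as deposited and 0.24 with arrays centred on their median, so the direction depended on the scaling and no setting called it. The epithelial marker OVGP1, which encodes oviductin, shifted likewise: its means were 8674 ± 676 with Y-spermatozoa and 7159 ± 1170.5 with X-spermatozoa, and 0.02 ± 0.12 (SE) on the normalized log2 scale. The part of the bright end of the arrays in the B2M values was not tested further.

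Of the other B2M probe sets, Ssc.12348.2.S1_at differed by -0.07 ± 0.10 (SE), positive under the other scalings at 0.04 and 0.07, and Ssc.5896.1.S1_at by 0.02 ± 0.10 (SE), which was 0.13 on the signals as deposited and 0.16 with arrays centred on their median. For these the 95% intervals, as fold changes, were 0.82 to 1.12 and 0.86 to 1.19. Of the 9 B2M probe sets, 5 had a log2 difference above 0 and 4 below, between -0.16 (Ssc.12809.4.S1_a_at) and 0.26 (Ssc.8925.1.S1_at). The probe sets of this gene did not share one pattern over the 8 arrays: of their 36 pairs, 20 correlated above 0 and 16 below, with a median of 0.05 and a highest value of 0.66. The correlation of the normalized log2 signals of Ssc.12348.1.S1_at and Ssc.12348.2.S1_at was 0.06, and that of Ssc.12348.2.S1_at and Ssc.5896.1.S1_at was -0.78. The pig gene table used for names holds 2 entries called B2M.

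TAP1, which forms one side of the peptide channel, gave 178.1, 130.7, 295.2 and 75.1 in the Y-spermatozoa oviducts of sows 1 to 4 and 147.3, 125.5, 219.6 and 70.2 in their X-spermatozoa oviducts (Ssc.27863.1.S1_at). Every sow had the higher signal on the Y-spermatozoa side, alone among the members, by 0.27, 0.06, 0.43 and 0.10 on the log2 scale, a pattern that 6.44% of all probe sets showed. No member was lower in all 4 sows, against 6.71% of all probe sets. The mean log2 difference of TAP1 was 0.21 ± 0.48 (SE) with an unadjusted p of 0.669 in limma. In the fit with a sow block the error was 0.11, the 95% interval ran between -0.07 and 0.50 and the unadjusted limma p was 0.112.

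TAPBP encodes tapasin and gave 236.8, 201.0, 207.1 and 259.2 with Y-spermatozoa and 212.8, 227.4, 183.2 and 175.9 with X-spermatozoa. Its unadjusted limma p of 0.226 was the smallest of the members, for a log2 difference of 0.18 ± 0.14 (SE) with the Y-spermatozoa side higher in sows 1, 3 and 4. Its groups overlapped, as did those of every member; 2.07% of all probe sets had groups that did not overlap.

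**Figure D2:**
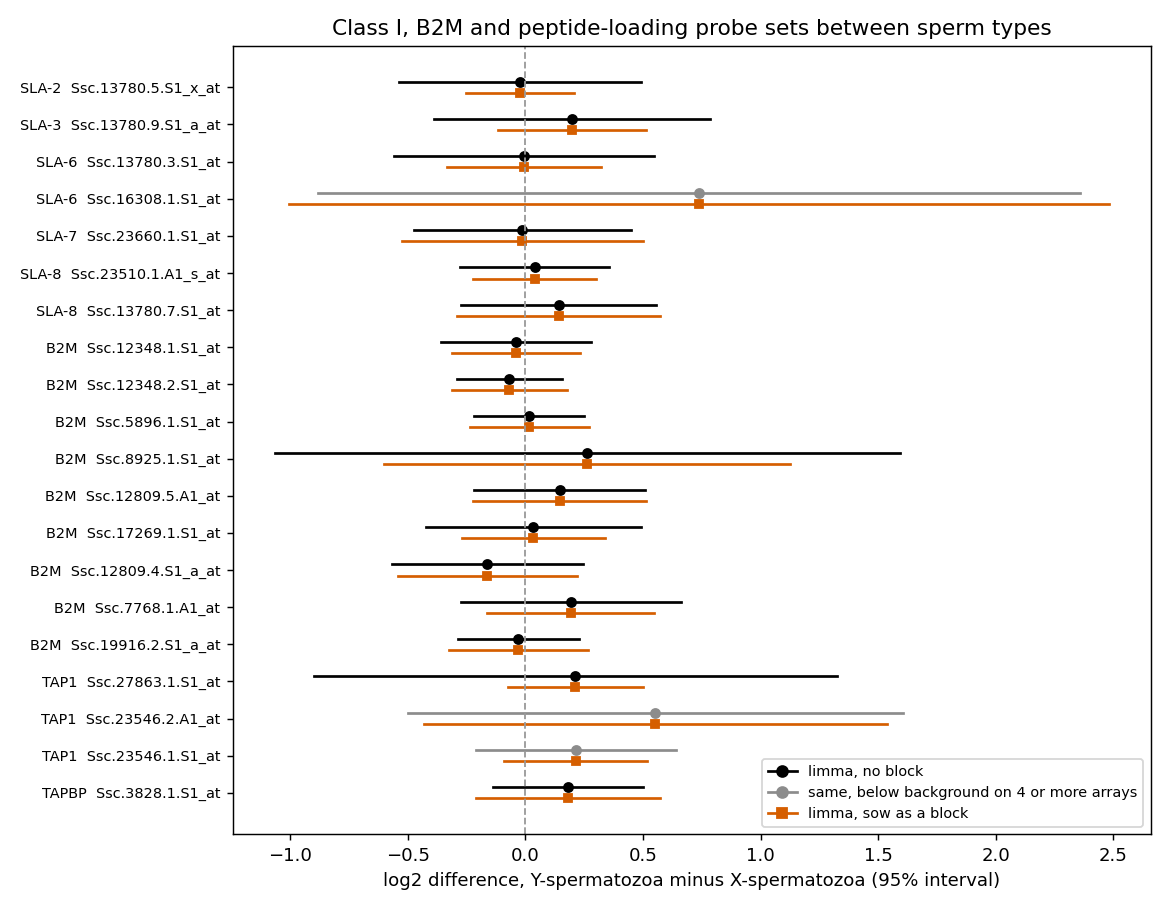
Log2 difference, Y-spermatozoa minus X-spermatozoa (horizontal axis), of the 20 probe sets with 95% intervals, from the fit without a block (circles) and from the sow-block fit (squares); grey marks the 3 probe sets below background on most arrays. Every interval of both fits covers 0, and that of TAP1 Ssc.27863.1.S1_at is narrower with the block.

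The intervals set how large a missed difference could be. In the fit without a block the 95% interval lay within 1 log2 unit in either direction for 15 of the 17 members above background. The exceptions were TAP1 Ssc.27863.1.S1_at, between -0.90 and 1.32, and B2M Ssc.8925.1.S1_at, between -1.07 and 1.59. In the sow-block fit the interval of TAP1 Ssc.27863.1.S1_at was narrower, between -0.07 and 0.50, and lay within 1 log2 unit. That of B2M Ssc.8925.1.S1_at ran between -0.60 and 1.13, and that of SLA-2 between -0.25 and 0.21.

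The spread of these genes was divided between sows and sperm types. Among the 17 members above background, differences between sows held a median of 70.5% of the spread and the sperm type 2.61%, beside 63.9% and 5.18% in the 11999 probe sets above the median signal. With no effect of either, the degrees of freedom alone would give mean shares of 42.9% and 14.3%. These are means and the shares above are medians, so their distance is not a measure of effect. The members lay near the other probe sets. A limma F test over the sow terms, with sperm type in the fit, gave no adjusted p under 0.05 for any of 23999 probe sets, the smallest being 0.0744 over the array and 0.151 among the members. At an unadjusted p of 0.05 it called 5 of 20 members, or 25%, against 3406 probe sets, or 14.2%. A fit of the 11999 brighter probe sets alone held 15 members. There 7 members, or 46.7%, passed an unadjusted limma p of 0.05, against 29.4% of all probe sets in that fit. An adjusted p of 0.05 was passed by 895 probe sets, among them TAP1 (adjusted p = 0.00313 in limma), SLA-2 (0.0360) and SLA-3 (0.0464). In the fit of all probe sets the adjusted limma p was 0.151 for TAP1, 0.246 for SLA-2 and 0.294 for SLA-3. Each sow was represented by the oviducts of 1 animal, so what differs between sows (genotype, cycle stage, cell make-up) cannot be told apart. Nor can fewer cells of a type and less RNA per cell. Whether the alleles of the polymorphic heavy chains bind the probes alike was not tested, since probe sequences were not used. For these chains a sow difference is therefore one of signal, and not necessarily of transcript level.

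TAP1 had the smallest sow p of the members in limma (adjusted p = 0.151; 0.00078 before adjustment). Sow 3 was highest and sow 4 lowest with either sperm type, the sow means lay 3.47-fold apart, and 96.2% of the spread was between sows. It passed at an unadjusted p of 0.05 with any one sow left out. SLA-2 followed (adjusted p = 0.246 in limma; 0.0098 before adjustment): sow 2 was highest and sow 1 lowest, 1.63-fold apart, and 99.0% of the spread was between sows, while the oviducts of one sow differed by a mean of 0.06 on the log2 scale. Without sow 1 its unadjusted p was 0.0660.

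SLA-3 had high signals in sows 1 and 2 and low ones in sows 3 and 4, 1.65-fold apart at most (adjusted p = 0.294 in limma; 0.0211 before adjustment, and 0.0627 without sow 2). SLA-6 Ssc.13780.3.S1_at was highest in sow 4 and lowest in sow 3, 1.72-fold apart (adjusted p = 0.322 in limma; 0.0335 before adjustment, 0.0514 without sow 2 and 0.162 without sow 4). B2M Ssc.8925.1.S1_at, a probe set described because of these values, gave 980.5, 1947.0, 327.2 and 695.9 with Y-spermatozoa and 508.4, 1447.6, 560.5 and 467.8 with X-spermatozoa. Sow 2 stood above the rest with either sperm type, 3.72-fold above sow 3, and without her the unadjusted sow p was 0.483, against 0.0446 with all sows (0.0598 without sow 4). B2M Ssc.12348.1.S1_at, Ssc.12348.2.S1_at and Ssc.5896.1.S1_at did not show this: their sow means lay 1.27-fold apart or less.

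**Figure D3:**
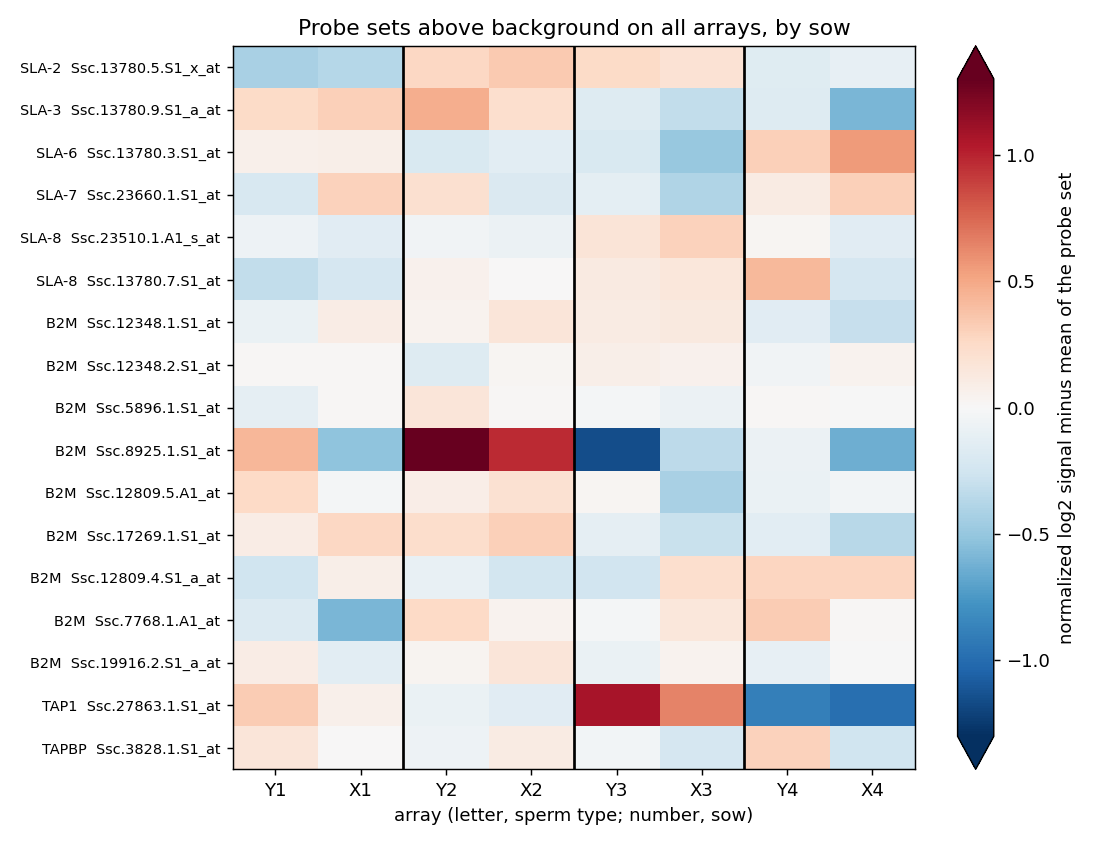
Normalized log2 signal minus the mean of the probe set (colour, red high and blue low, scale limited to 1.3 in either direction) for the 17 probe sets above background on all arrays, one per row, with the 8 arrays in columns and black lines between sows. The columns of one sow share colour for TAP1, SLA-2, SLA-3 and SLA-6 Ssc.13780.3.S1_at, and the rows do not share one order of sows.

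There was no single order of sows across the pathway. Among the 17 members above background the highest sow mean was in sow 2 for 7, in sow 3 for 5, in sow 4 for 4 and in sow 1 for 1. Over the 8 arrays SLA-6 Ssc.13780.3.S1_at ran opposite to TAP1 (r = -0.80) and to B2M Ssc.12348.1.S1_at (r = -0.87), while SLA-3 ran with B2M Ssc.17269.1.S1_at (r = 0.95). These correlations are descriptions over arrays that come in pairs from 4 sows.

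Of the 5 class I probe sets annotated to several genes at once, 3 passed an unadjusted limma sow p of 0.05, as did 14.2% of all probe sets. The adjusted limma p-values of these 3 were 0.146 to 0.168. The probe set for SLA-2 or SLA-3 gave 1426.8, 3225.3, 2681.8 and 2148.8 with Y-spermatozoa and 1408.9, 2967.2, 2528.3 and 1797.5 with X-spermatozoa. Its normalized log2 signal correlated with that of SLA-2 at 0.99, and that of Ssc.13780.10.S1_x_at (LOC100513601, SLA-2 or SLA-1) did so at 0.96. Neither is therefore separate from the SLA-2 result. One for LOC100513601 or SLA-1 (Ssc.13780.11.S1_x_at) gave 111.1, 229.9, 431.1 and 65.4 with Y-spermatozoa and 115.4, 215.0, 282.1 and 49.4 with X-spermatozoa. Its sow means lay 6.09-fold apart, with sow 3 high and sow 4 low as in TAP1 (r = 0.86 with TAP1). The sperm-type difference was between 0.01 and 0.27 on the log2 scale in 4 of the 5, the other being below background on 6 of 8 arrays, and none passed an unadjusted p of 0.05.

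**Figure D4:**
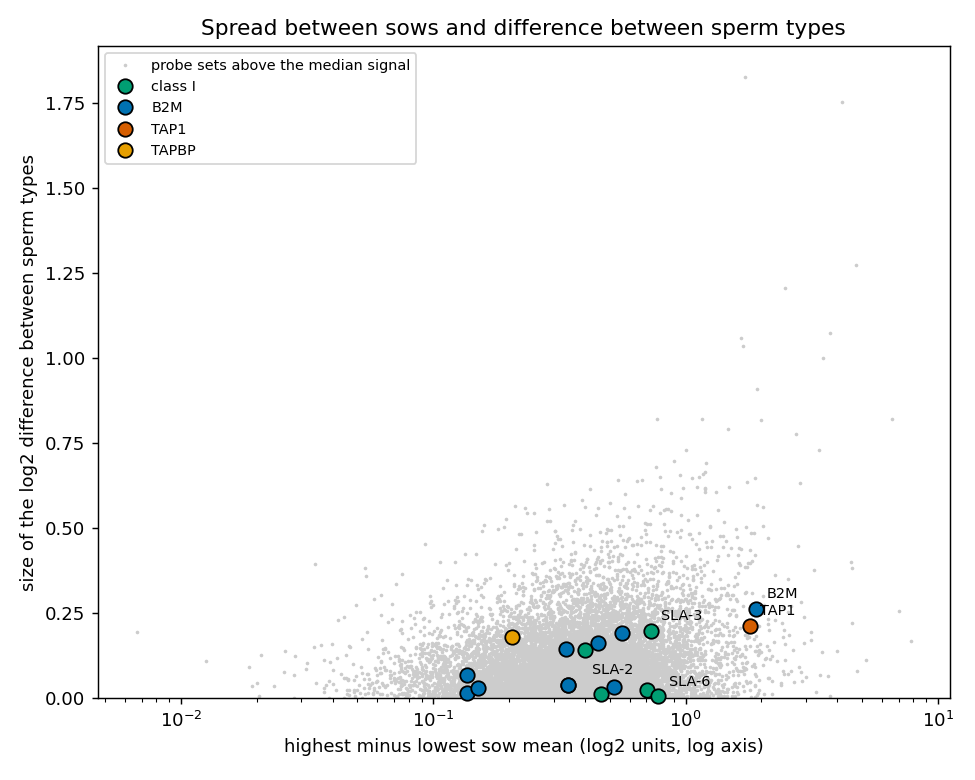
Size of the log2 difference between sperm types (vertical axis) against the highest minus the lowest sow mean (horizontal log axis, log2 units) for the 17 members above background, coloured by gene, and for the 11999 probe sets above the median signal in grey; names mark members with an unadjusted sow p under 0.05. TAP1 and one B2M probe set lie to the right, and no member is above 0.26 on the vertical axis.

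Markers of cell types were set beside these sow differences, and their part in them was not tested. The summed signal of the 7 measured epithelial marker genes was 16712 to 17399 with Y-spermatozoa and 13989 to 16510 with X-spermatozoa on the deposited scale, groups that did not overlap, although none of its 9 probe sets passed an unadjusted p of 0.05 after normalization. OVGP1 was the largest part of the sum, and without it the sums overlapped, at 8084 to 9596 with Y-spermatozoa and 7154 to 8148 with X-spermatozoa. Over the 8 arrays the normalized sum correlated at 0.73 with TAP1. The genes of the list did so in opposite directions, with TEKT1, a ciliary marker, at 0.88, OVGP1 at 0.86 and CDH1 at 0.58, but EPCAM at -0.24, KRT19 at -0.36, KRT8 at -0.80 and KRT18 at -0.82. The 9 leukocyte marker genes summed to 108.5 to 159.6 with Y-spermatozoa and 113.7 to 126.6 with X-spermatozoa. Their normalized sum correlated at 0.57 with SLA-2 and 0.13 with TAP1. With probe sets of B2M the correlations ran in opposite directions, at 0.82 for Ssc.5896.1.S1_at and -0.70 for Ssc.12348.2.S1_at. The 5 smooth muscle and endothelial marker genes summed to 1036 to 3224 with Y-spermatozoa and 1515 to 4061 with X-spermatozoa, led by ACTA2. Their correlations with members above background ran in opposite directions, between -0.49 (B2M Ssc.12809.5.A1_at) and 0.64 (SLA-2 and B2M Ssc.7768.1.A1_at). The 8 measured MHC class II genes, which antigen-presenting cells carry, summed to 869 to 1003 with Y-spermatozoa and 753 to 1180 with X-spermatozoa. Here too the correlations ran in opposite directions, between -0.67 (B2M Ssc.7768.1.A1_at) and 0.81 (SLA-3), with SLA-2 at -0.30.

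The genes whose signal ran most like these members over the 8 arrays were named by Pearson's r among 5959 to 5966 brighter probe sets with 1 symbol. For B2M Ssc.12348.1.S1_at they were PRKAR1A (r = 0.97), GPX2 (0.96), PHKA2 (0.95), OVGP1 (0.94) and RFWD2 (0.94). For TAP1 they were RRM1 (0.97), AK8 (0.96), TMEM86A (0.96), CFAP126 (0.96) and ABCB6 (0.95). For SLA-2 they were RUVBL1 (0.96), REXO2 (0.95), TMEM216 (0.95), FANCF (0.94) and RNASEK (0.94). With 8 paired arrays and so many candidates, values of this height are a description only.

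Without a block no probe set of the other pathway lists passed an unadjusted p of 0.05 between the sperm types, and with the sow block 1 did, of AZGP1. Among genes of the immunoproteasome and of peptide trimming, 9 of 13 listed genes were measured by 10 probe sets and none passed an unadjusted p of 0.05, with a median log2 difference of 0.04. PSME1 and PSME2, subunits of the proteasome activator, differed by 0.02 ± 0.16 and 0.11 ± 0.21 (SE), the aminopeptidase NPEPPS by 0.06 ± 0.13 (SE) and the hydrolase BLMH by 0.06 ± 0.17 (SE). PSMB8, an inducible catalytic subunit of the immunoproteasome, varied between sows (an unadjusted limma p of 0.0209, with sow means 2.35-fold apart) and differed by 0.01 ± 0.36 (SE) between sperm types.

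Among endoplasmic reticulum chaperones of class I assembly, none of 13 probe sets for 6 genes passed. The chaperone HSPA5 differed by -0.07 ± 0.14 (SE), PDIA3, the oxidoreductase of the loading complex, by 0.14 ± 0.25 (SE), calnexin, CANX, by 0.05 ± 0.13 (SE, its brightest probe set) and calreticulin, CALR, by 0.10 ± 0.16 (SE). PDIA3 passed an unadjusted sow p of 0.05 on 2 of its 3 probe sets, with low signals in sow 3: 1321.4 with Y-spermatozoa and 1308.4 with X-spermatozoa, against 1977.1 or more in sows 2 and 4 on one of them.

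Of 25 probe sets for 17 genes that control class I transcription, interferon receptors included, none passed, and the median was 0.00. The kinase JAK1 differed by 0.00 ± 0.12 in size, the interferon gamma receptor chain IFNGR1 by 0.11 ± 0.16, the transcription factor IRF1 by 0.08 ± 0.15 and the type I interferon receptor chain IFNAR1 by 0.02 ± 0.19 (SE). None of 7 probe sets for class I-like molecules passed without a block, and 1 did with the sow block: AZGP1 Ssc.11607.1.S1_at had signals of 40.5, 46.8, 56.6 and 40.0 with Y-spermatozoa and 27.8, 44.2, 42.4 and 18.6 with X-spermatozoa. Its log2 difference was 0.57 ± 0.29 (SE), above 0 in 4 of 4 sows, with an unadjusted limma p of 0.0880 without and 0.0360 with the block, and an adjusted p = 0.895 in limma with the block. FCGRT, the heavy chain of the neonatal Fc receptor, which also binds B2M, differed by 0.07 ± 0.16 (SE). The other AZGP1 probe set, Ssc.16729.1.S1_at, had signals of 208.9, 1043.7, 335.5 and 260.3 with Y-spermatozoa and 167.3, 1054.7, 297.4 and 229.1 with X-spermatozoa, high in sow 2 on both sides.

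Genes for receptors that read class I molecules on lymphocytes were near background, and none of their 10 probe sets passed. CD8A, a chain of the T cell co-receptor, averaged 23.7 ± 5.5 with Y-spermatozoa and 20.6 ± 1.65 with X-spermatozoa (SD, n = 4 each). Of the marker lists, 1 probe set passed an unadjusted p of 0.05: PTPRC, the pan-leukocyte phosphatase, had signals of 12.1, 15.7, 8.8 and 9.8 with Y-spermatozoa and 9.2, 5.0, 6.8 and 7.6 with X-spermatozoa. Its signal was above that of the opposite side in 4 of 4 sows, by 0.78 ± 0.26 (SE) on the log2 scale with an unadjusted limma p of 0.0171, at levels around the background. An exact two-sided permutation test over the 70 relabellings, which ignores the pairing, gave p = 0.0571, where 0.0286 is the smallest it allows. With the sow block VWF, an endothelial marker, passed as well. No probe set of the MHC class II list passed.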

How the data were processed

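Scraped oviductal cells of 4 sows were hybridised to 8 Affymetrix Porcine arrays, 4 with Y-spermatozoa and 4 with X-spermatozoa, grouped by the labels. The deposited values are linear intensities, 1 signal per probe set, which the authors made with MAS5 version 5.1 and scaled to one trimmed mean per array (100.02 over the probe sets with 2% trimmed at each end). The study's methods describe RMA, limma and Benjamini-Hochberg correction. RMA needs probe-level values, which were not used here, so signals were quantile-normalized, set to at least 1 and taken to log2. Arrays have no read depth, and their number limits the precision. Signals of different probe sets were used only to choose the brightest probe set of a gene and those above the median signal or background, not to compare levels of genes.

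Differences are Y-spermatozoa minus X-spermatozoa, tested two-sided with lmFit and eBayes of limma 3.58.1 in R 4.3.3, without a block, over 23999 probe sets (124 AFFX controls left out). The sow block was an alternative. Arrays were paired by the replicate numbers in the labels, since each sow gave both oviducts. The labels do not state that the same number marks the same sow, so every sow result rests on this pairing. The 4 pairs had correlations of 0.13 to 0.19 between their departures from the group means. Sow differences were tested by the F test of the sow terms. The plan set the threshold for sows at an adjusted p of 0.05, and counts at an unadjusted p of 0.05 are given beside it. P-values of the fit without a block set a difference against the spread among arrays of a sperm type. Those of the sow block and of the sow F test use the spread left after sperm type and sow. All cover these 4 sows alone.

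Symbols came from the platform annotation, which gives 1 symbol to 10140 probe sets, several to 157 and none to 13826. All 20 member gene IDs were found in a gene table of the assembly Sscrofa11.1, used for names alone. Probe sequences were not used. Named are every member, with values on each array for the brightest probe set of each gene, up to 4 genes a list (those past an unadjusted p of 0.05, then the brightest) and the 5 most alike genes. PSMB8, TEKT1 and AZGP1 between sows, and B2M Ssc.8925.1.S1_at, were named after their values were seen. The members and gene lists were chosen with earlier results of these data known. The scripts were tested on simulated data with 200 changed probe sets. The simulated noise held no spread between sows, so the fit without a block was not tested under such spread. Alternatives were a sow block (fixed or random), no or median scaling, a pseudocount of 16, a floor at background, only probe sets above the median signal, a variance trend, array weights, an unmoderated test, a covariate of hybridisation controls, and the omission of single arrays or sows. Figures were drawn with matplotlib 3.10.9 in Python 3.11.15.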

Additional observations from a re-analysis of the deposited data

Results flagged for a closer look

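In 3 of the 40 groups of 4 arrays (20 probe sets, each with Y-spermatozoa and with X-spermatozoa) 1 array stood apart from the other arrays of its group by more than Dixon's 95% limit. About 1 in 20 groups does so by chance. All 3 were X-spermatozoa arrays of different sows. SLA-6 Ssc.16308.1.S1_at had 1.7 in sow 1, against 5.5 to 6.1 in the other sows, all below background. SLA-8 Ssc.23510.1.A1_s_at had 249.1 in sow 3, against 181.6 to 190.4. In that sow the Y-spermatozoa oviduct was also the highest of its group, at 226.9. B2M Ssc.8925.1.S1_at had 1447.6 in sow 2, against 467.8 to 560.5, and the Y-spermatozoa oviduct of that sow, at 1947.0, was likewise the highest of its group.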

How the results depend on the processing

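No member above background was called between the sperm types under any setting with all arrays. Of 455 member differences over 23 alternatives 5 passed an unadjusted p of 0.05, of which 4 were of probe sets below background on most arrays and 1, of B2M Ssc.8925.1.S1_at, came without sow 3 in the fit with the sow block. The count of all probe sets passing was 855, 1222 with the sow block, 1459 with the sow as a random block and 311 among the brighter probe sets alone, where fewer were tested. It was 767 to 1207 with an array or sow left out. On the signals as deposited 271 were higher and 631 lower, against 389 and 466 after quantile normalization. The count of members was 0 to 1 with an array or sow left out and 1 with hybridisation controls as a covariate (TAP1 Ssc.23546.2.A1_at). The 1 listed probe set that passed, PTPRC, became 3 with the sow block, 3 with the random block (AZGP1 and VWF added under the sow block), 3 in the unmoderated test, 0 with a floor at background, 0 among brighter probe sets, and 1 to 4 with an array or sow left out. The members' median difference was 0.09 and became 0.17 with arrays centred on their median, 0.019 with a floor at background, and 0.05 to 0.15 with an array or sow left out.

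No difference that changed sign had been called, and the cause was not tested. On the deposited signals the log2 difference was 0.21 for B2M Ssc.12348.1.S1_at, 0.040 for Ssc.12348.2.S1_at and 0.078 for SLA-2. With arrays centred on their median these were 0.24, 0.074 and 0.11, and SLA-6 Ssc.13780.3.S1_at had 0.024. With a floor at background both dim TAP1 probe sets had -0.11, which is the difference of the floors. Array weights gave 0.0034 for SLA-2. With the covariate the values were 0.019 (B2M Ssc.12348.1.S1_at), 0.10 (Ssc.12809.4.S1_a_at), -0.086 (Ssc.12809.5.A1_at), 0.066 (SLA-2), -1.19 (SLA-6 Ssc.16308.1.S1_at) and 0.38 (SLA-7). With 1 array or sow left out the range was -0.15 to 0.0074 for B2M Ssc.12348.1.S1_at, -0.081 to 0.14 for Ssc.17269.1.S1_at, -0.12 to 0.017 for Ssc.19916.2.S1_a_at, -0.033 to 0.067 for Ssc.5896.1.S1_at, -0.13 to 0.69 for Ssc.8925.1.S1_at, -0.17 to 0.18 for SLA-6 Ssc.13780.3.S1_at, -0.15 to 0.11 for SLA-2, -0.024 to 0.27 for SLA-8 Ssc.13780.7.S1_at, -0.0089 to 0.15 for Ssc.23510.1.A1_s_at, and -0.15 to 0.15 for SLA-7. For TAP1 Ssc.27863.1.S1_at it was -0.11 without the Y-spermatozoa oviduct of sow 3 to 0.54 without that of sow 4.

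Sow calls at an unadjusted limma p of 0.05 numbered 5 members with all sows, or 25%, against 14.2% of all probe sets. With a sow left out they numbered 3 to 6 members, or 15% to 30%. Of all probe sets 2671 to 3023 passed then, or 11.1% to 12.6%. The share of members was 15% without sow 2 and without sow 4. An adjusted p of 0.05 was passed by 0 probe sets, by 414 with the pseudocount of 16 (TAP1 among them) and by 895 among the brighter ones. Signal limits what can be said of the 3 dim probe sets, whose differences lie between levels at or below background.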
